A study of Homo sapiens with 60 samples.

Results

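The 29 genes described here encode enzymes that build sterols and isoprenoids from acetoacetyl-CoA, with a pair of sterol carriers, and they were chosen by gene name from the 60675 genes of the deposited count table. Of these genes, 21 form the sterol branch: 7 enzymes of the mevalonate steps, 3 of the squalene steps, 9 of the steps from lanosterol to cholesterol, and the carriers STARD4 and TMEM97. The other 8 genes are nonsterol members, which use the same precursors for ubiquinone, dolichol and protein prenylation. FDPS and HSD17B7 have near-identical pseudogene copies, between which the counting may have split reads. All 29 passed the filter on low counts, as did 16675 genes in all, so no member was left out of a test.

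Levels were measured by RNA-seq in HepG2, a human hepatocellular carcinoma cell line, after 24 h with an ethanol extract or with the DMSO vehicle, in 60 libraries. The extracts of Coptidis Rhizoma and Bupleuri Radix were given at 11.2, 56 and 280 µg/mL. Those of Zizyphi Fructus, Citri Unshius Pericarpium, Cimicifugae Rhizoma, Aconiti Lateralis Radix Preparata, Yijung-tang and Banhasasim-tang were given at 20, 100 and 500 µg/mL. Each dose had 3 libraries for Citri, Cimicifugae, Bupleuri and Aconiti, 2 for Coptidis, Zizyphi and Yijung-tang, and 1 for Banhasasim-tang, and the vehicle had 3. The labels put the highest dose at the concentration that inhibited 20% of growth, or at 500 µg/mL where that was not reached, and they give no vehicle library within the sets that hold the extracts.

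In the mevalonate pathway, acetyl-CoA units are joined and reduced to mevalonate, which is then turned into the isoprenoid building blocks and farnesyl diphosphate. Farnesyl diphosphate is a branch point: squalene synthase commits it to cholesterol, while prenyltransferases use it for protein lipidation, dolichol and the side chain of ubiquinone. In liver cells the sterol branch is transcribed under SREBP-2, a membrane-bound transcription factor that is released when sterol in the endoplasmic reticulum is low.

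Library totals ran from 18015552 to 29549499 counts. The hepatocyte markers ALB, AFP, APOA2, TTR, FGB and HNF4A were detected in all 60 libraries, TTR lowest at 13.1 to 70.5 CPM (counts per 1000000 of the library). Of markers of other cells, PTPRC of leukocytes was at 0 in all 60 and DES at 0 in 40. PECAM1 lay between 1.85 and 4.66 CPM and COL1A1 between 0.146 and 3.11 CPM. These marker levels are not TMM-scaled, while the CPM given below are. One replicate stood apart: the chi-square per gene between Bupleuri low dose replicate 3 and its group was 94.3 to 99.4, against 2.09 to 19.4 for the 46 other replicate pairs. The single Banhasasim-tang low dose library also stood apart, with 10268 genes at least 1.5-fold from the vehicle mean. The share of counts on mitochondrial ribosomal RNA was 11.6 to 11.8% at the low, 10.2 to 11.5% at the medium and 5.41 to 5.68% at the high Coptidis dose, against 2.47 to 2.61% in vehicle, and its part in the results was not tested. The vehicle libraries carry a set code of their own in the titles, so that for any comparison with vehicle the extract and the set cannot be told apart. For Coptidis and Zizyphi the title and the description of a sample also give different batch letters, of which the one in the title is also that of the vehicle. High against low dose comparisons stay within 1 set. The labels do not say whether replicates came from separate cultures, so p-values may measure a spread that is only technical. Because CPM are shares of a library made from whole cultures, fewer cells of a kind and less RNA per cell cannot be told apart.

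Of the 7 replicated extracts, Coptidis had the lowest median change of the sterol branch. At 280 µg/mL all 21 sterol branch members were lower than in vehicle, by 1.00 to 3.33 on the log2 scale, with a median log2 fold change of -2.23 against 0.00 over all tested genes. Over all 29 members, 25 fell and 2 rose (edgeR's quasi-likelihood test with Benjamini-Hochberg adjustment, adjusted p under 0.05). In the same comparison 67.5% of all tested genes passed the test, 34.5% higher and 33% lower, and such shares of all tested genes are given below as the background.

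**Figure D1:**
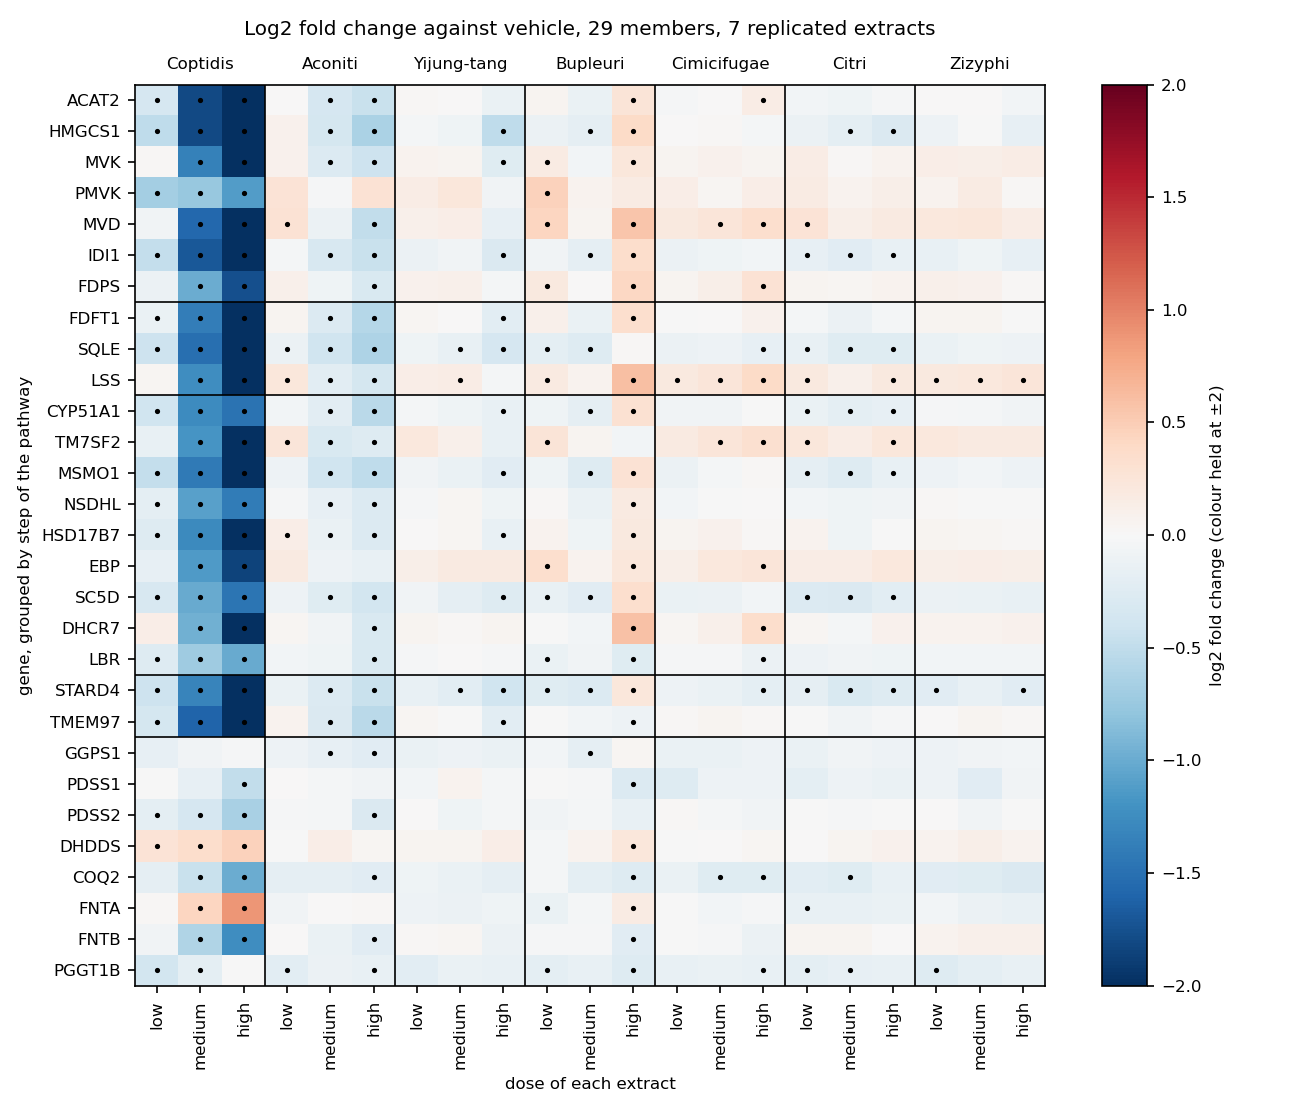
Log2 fold change against vehicle (colour, held at 2 either way) of the 29 members, in rows grouped by pathway step, at the low, medium and high dose of 7 replicated extracts. A black dot marks an edgeR adjusted p under 0.05. The Coptidis columns hold the darkest blue for the 21 sterol branch members, and the Bupleuri high dose column is the one with most red.

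Among the mevalonate steps, ACAT2 changed most with Coptidis. ACAT2 (ENSG00000120437, GRCh38 chromosome 6, 159760328 to 159779055), the cytosolic thiolase that makes acetoacetyl-CoA, had 274, 285 and 286 CPM in vehicle, 222 and 223 at 11.2 µg/mL, 73.0 and 87.8 at 56 µg/mL and 30.2 and 26.0 at 280 µg/mL. The high dose libraries lay 10.0-fold below vehicle, at a log2 fold change of -3.33 ± 0.074 (SE, adjusted p = 2.15e-35), and no library of any dose overlapped the vehicle libraries. HMGCS1 (ENSG00000112972, GRCh38 chromosome 5, 43289395 to 43313512), the cytosolic HMG-CoA synthase, had 505, 505 and 484 CPM in vehicle, 367 and 333 at the low, 128 and 156 at the medium and 74.7 and 71.7 at the high dose, with a log2 fold change of -2.77 ± 0.061 at the high dose (adjusted p = 1.45e-35). The libraries of successive doses did not overlap.

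IDI1, which isomerises isopentenyl diphosphate, had 212, 213 and 199 CPM in vehicle, 146 and 154 at the low, 59.4 and 69.6 at the medium and 29.8 and 30.3 at the high Coptidis dose (log2 fold change -2.79 ± 0.064 at the high dose). MVD, the decarboxylase that makes isopentenyl diphosphate, had 181, 177 and 179.6 CPM in vehicle, 156 and 187 at the low, 60.3 and 60.8 at the medium and 29.3 and 30.1 at the high dose. Its low dose libraries straddled the vehicle range, while the medium and high dose libraries lay below it, at a high dose log2 fold change of -2.59 ± 0.100. MVK, mevalonate kinase, had 15.3 and 14.2 CPM at the high dose, against 64.8 and 78.4 at the low dose (log2 fold change -2.27 ± 0.082, adjusted p = 4.19e-27). PMVK, phosphomevalonate kinase, was lower than in vehicle at every dose, by 0.68, 0.76 and 1.11 on the log2 scale from the low to the high dose. It was the 1 sterol branch member not called between the high and the low dose, at 5.24 and 6.61 against 8.29 and 7.64 CPM.

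The squalene steps and the carriers followed the same order of doses. FDFT1, squalene synthase, had 475, 478 and 477 CPM in vehicle, 418 and 449.7 at the low, 179 and 185 at the medium and 91.0 and 94.6 at the high Coptidis dose (log2 fold change -2.36 ± 0.060 at the high dose). SQLE, the squalene epoxidase, had a log2 fold change of -2.32 ± 0.046, and LSS, which cyclises the epoxide to lanosterol, one of -2.17 ± 0.053. TMEM97 (ENSG00000109084, GRCh38 chromosome 17, 28319095 to 28328685), a membrane protein of the endoplasmic reticulum and lysosome that binds sterols, had 249, 239 and 234 CPM in vehicle, 189 and 187 at the low, 77.9 and 80.3 at the medium and 35.2 and 33.8 at the high dose (log2 fold change -2.80 ± 0.042, adjusted p = 1.57e-41). STARD4, a soluble sterol carrier, reached -2.56.

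From lanosterol to cholesterol all 9 enzymes fell at the high Coptidis dose, with a median log2 fold change of -1.85. TM7SF2, a sterol C14 reductase, had 12.5 and 13.5 CPM, against 56.8 and 67.8 at the low dose and 67.6, 68.4 and 70.4 in vehicle (log2 fold change -2.40 ± 0.083 against vehicle). HSD17B7 (-2.23), MSMO1 (-2.13) and DHCR7 (-2.07), which carry out the C3 ketone reduction, the C4 demethylation and the last reduction of the B ring, were next. LBR, which is both a nuclear lamina receptor and a second C14 reductase, fell least, by 1.00 on the log2 scale, and CYP51A1, NSDHL and SC5D fell by 1.47, 1.41 and 1.46. EBP, the sterol isomerase, stood between them at -1.85. Of 6 hepatocyte markers in the same comparison, 4 were lower and 1 higher (background 34.5% higher and 33% lower), and their part in the result was not tested.

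The nonsterol members were mixed. Their median log2 fold change at the high Coptidis dose was -0.26, with 4 lower, 2 higher and 2 not called. As the background was 67.5%, 34.5% higher and 33% lower, nothing is read from these counts. FNTB, the beta subunit of farnesyltransferase, had 16.2 and 15.3 CPM, against 33.7 and 37.2 at the low dose and 37.8, 35.8 and 38.0 in vehicle (log2 fold change -1.24 ± 0.066 against vehicle, adjusted p = 3.14e-21). FNTA, the alpha subunit that farnesyltransferase shares with the enzyme that attaches geranylgeranyl groups, moved the other way, with 73.2 and 76.3 CPM at the high dose, against 38.8, 40.8 and 41.6 in vehicle (0.89 ± 0.054, adjusted p = 5.80e-19). COQ2, PDSS2 and PDSS1, of ubiquinone synthesis, fell by 0.99, 0.64 and 0.49 on the log2 scale. DHDDS, a subunit of the enzyme that makes dolichol precursors, rose by 0.46. GGPS1, which makes geranylgeranyl diphosphate, had 28.7 and 31.0 CPM against 31.6, 30.4 and 28.9 in vehicle, and PGGT1B had 33.5 and 30.5 against 31.2, 32.3 and 32.8 CPM, and neither was called (adjusted p = 0.797 and 0.976).

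Mean levels of all 21 sterol branch members fell in order from the low through the medium to the high Coptidis dose, as did those of 4 of the 8 nonsterol members, while the other 4 rose in order. Between the high and the low dose, within 1 set, 20 of 21 sterol branch members were lower (median -2.15), and over all members 24 were lower and 3 higher (background 60.2%, 30.9% higher and 29.3% lower). At the low dose the sterol branch median against vehicle was -0.26. The mitochondrial ribosomal share given above was higher than in vehicle at every Coptidis dose, and its part in these changes was not tested. At the medium dose the 21 sterol branch members were also all lower than in vehicle (median -1.28, 25 of 29 members lower and 2 higher, background 50.7%, 26.1% higher and 24.6% lower), and at the low dose 14 of 21 were (16 of 29 lower and 1 higher, background 33.2%, 17.1% higher and 16.1% lower).

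Zizyphi shares the set of Coptidis and serves as a within-set comparison. Against Zizyphi at the matched high dose rank (280 against 500 µg/mL), all 21 sterol branch members were lower with Coptidis, at a median of -2.25 (25 members lower and 2 higher, background 64.4%, 33% higher and 31.4% lower). At the medium rank all 21 were lower (median -1.36, 23 of 29 lower and 2 higher, background 44.6%, 23.2% higher and 21.4% lower), and at the low rank 17 of 21 were (median -0.28, 17 of 29 lower and 0 higher, background 16.5%, 9.19% higher and 7.27% lower). ACAT2 had 30.2 and 26.0 CPM with Coptidis and 268 and 276 with Zizyphi, a log2 fold change of -3.28 ± 0.076, close in size to the one against vehicle.

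**Figure D2:**
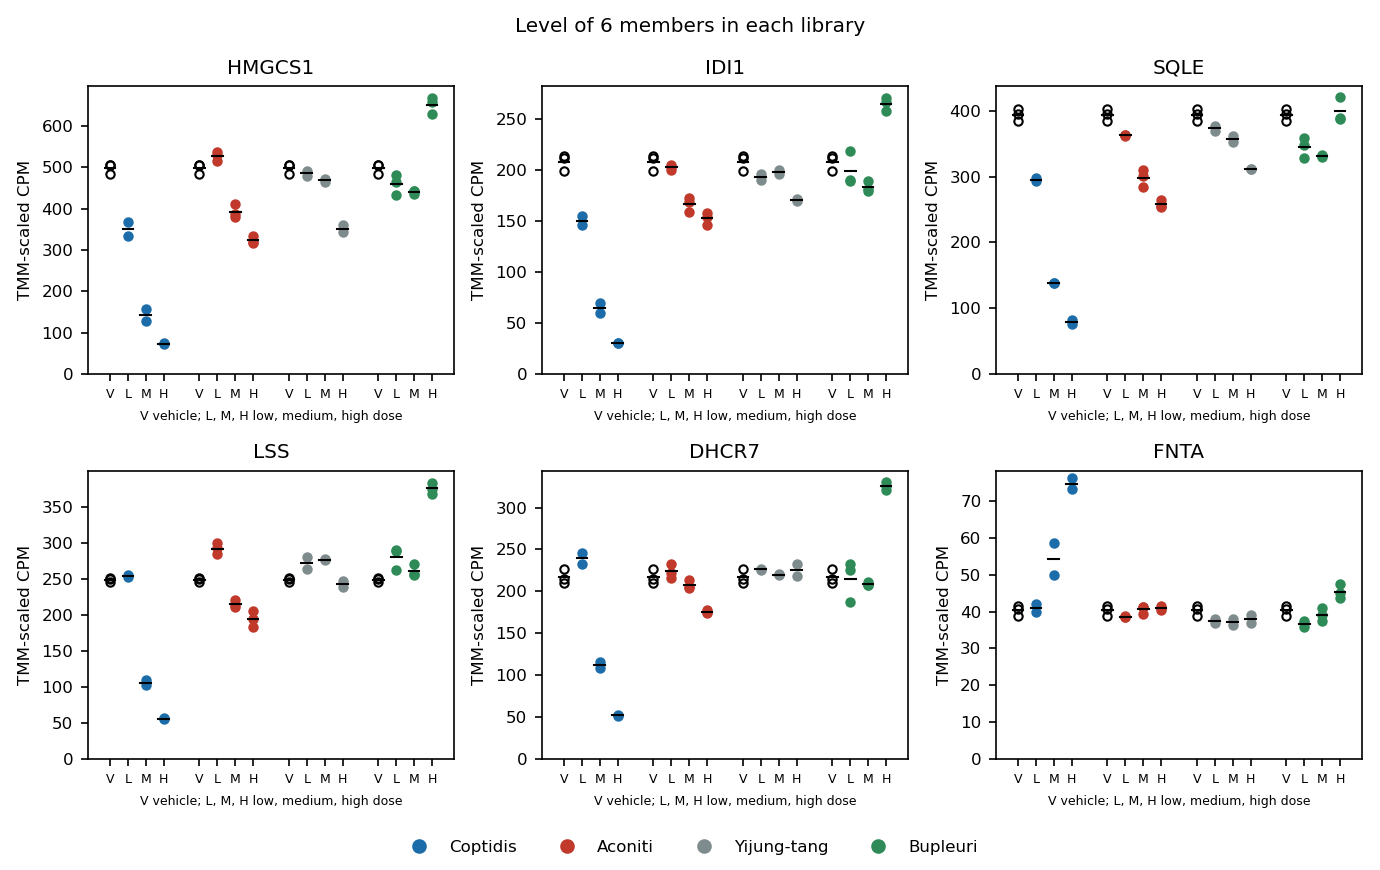
TMM-scaled CPM of 6 members in each library, for vehicle (open circles) and the low, medium and high dose of Coptidis, Aconiti, Yijung-tang and Bupleuri (filled circles), with a bar at the group mean. HMGCS1, IDI1, SQLE, LSS and DHCR7 step down with Coptidis dose and lie highest, SQLE apart, in the Bupleuri high dose libraries, while FNTA steps up with Coptidis dose.

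The promoters of 5 members are shown because all 21 sterol branch members fell with Coptidis at the high and the medium dose. The nonsterol members, like all tested genes, went both ways. Each sequence is the 250 bases before a transcription start from RefSeq on GRCh38.p14, written 5′ to 3′ on the strand of the gene, with the letters CCAAT on either strand in capitals. CCAAT is the core bound by NF-Y, which is known to act with SREBP-2 at sterol genes. MSMO1 (chr4:165327419-165327668, plus strand) holds 4 such boxes, NSDHL (chrX:152830813-152831062, plus strand) 5, TMEM97 (chr17:28318950-28319199, plus strand) 3 and STARD4 (chr5:111512536-111512785, minus strand) 2. The 5 of NSDHL include 2 that overlap as CCAATTGG, 1 read on each strand. PDSS2 (chr6:107459565-107459814, minus strand), a nonsterol member that also fell with Coptidis, holds 0. These 5 do not stand for all members. In the sterol branch, CYP51A1, LBR and PMVK hold 0, though they fell with Coptidis, while the nonsterol COQ2 and FNTB hold 2 and 1.
MSMO1: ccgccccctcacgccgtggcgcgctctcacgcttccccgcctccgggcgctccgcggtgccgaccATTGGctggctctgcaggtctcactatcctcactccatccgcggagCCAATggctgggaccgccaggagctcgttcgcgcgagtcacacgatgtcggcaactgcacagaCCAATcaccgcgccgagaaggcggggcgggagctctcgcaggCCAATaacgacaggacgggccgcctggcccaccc
NSDHL: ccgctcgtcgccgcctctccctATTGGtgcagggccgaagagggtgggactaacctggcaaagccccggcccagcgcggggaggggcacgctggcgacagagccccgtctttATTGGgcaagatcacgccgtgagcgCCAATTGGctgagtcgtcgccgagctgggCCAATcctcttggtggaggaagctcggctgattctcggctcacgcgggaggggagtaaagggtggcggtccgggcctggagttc
TMEM97: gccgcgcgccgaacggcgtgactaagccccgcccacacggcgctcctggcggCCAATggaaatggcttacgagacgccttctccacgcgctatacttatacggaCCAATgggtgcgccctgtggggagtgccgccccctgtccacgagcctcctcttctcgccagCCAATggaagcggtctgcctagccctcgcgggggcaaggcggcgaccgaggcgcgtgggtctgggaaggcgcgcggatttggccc
STARD4: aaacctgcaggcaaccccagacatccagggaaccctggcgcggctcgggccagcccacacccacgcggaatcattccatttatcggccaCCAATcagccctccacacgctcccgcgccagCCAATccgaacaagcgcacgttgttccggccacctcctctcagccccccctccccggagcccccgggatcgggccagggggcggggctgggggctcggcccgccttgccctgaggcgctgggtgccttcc
PDSS2: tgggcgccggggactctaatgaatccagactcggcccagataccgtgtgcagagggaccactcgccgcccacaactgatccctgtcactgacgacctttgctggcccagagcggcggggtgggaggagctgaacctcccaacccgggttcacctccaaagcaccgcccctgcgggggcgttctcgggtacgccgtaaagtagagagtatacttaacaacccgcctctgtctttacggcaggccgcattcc

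RefSeq promoters were matched for 25 of the 29 members (ACAT2, FDFT1, SQLE and FNTA had no entry). A gene with several starts was scored by the promoter with most matches, so the counts are of genes. IDI1, HMGCS1, DHCR7 and GGPS1 also have a promoter with 0 CCAAT. At least 1 CCAAT, searched on both strands, was found for 15 of 18 sterol branch genes (83.3%), for 3 of 7 nonsterol genes (42.9%) and for 37% of 27305 genes. At least 2 boxes were found for 61.1% of the sterol branch genes, for 14.3% of the nonsterol genes and for 11.5% of all. GGGCGG, the core of the Sp1 box, was found for 88% of the members and for 46.2% of all. TCACNCCAC, 1 spelling of the sterol regulatory element, was found for 0 of 25 members and for 1.09% of all, which says only that these letters are not in this window. A match is a description of the sequence, not a shown binding site.

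With Aconiti the sterol branch was lower too, on a smaller scale than with Coptidis. Between 500 and 20 µg/mL, 20 of 21 sterol branch members were lower (median -0.41), and over all 29 members 22 were lower and 0 higher, with a background of 14.6%, 6.77% higher and 7.83% lower. Every called sterol branch member had all 3 high dose libraries below all 3 low dose libraries. The share of all called genes that separate in this way is not given, so nothing beyond the calls is read from this. MVD had 126, 133 and 123 CPM at the high dose, against 225, 216 and 217 at the low dose (log2 fold change -0.78 ± 0.077, adjusted p = 1.32e-10). HMGCS1 had 316, 319 and 334 CPM at the high dose, against 514, 530.4 and 537 at the low dose (-0.71 ± 0.048, adjusted p = 1.23e-15). The high dose libraries of both genes also lay below vehicle, at -0.49 and -0.63.

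FDFT1 had 313, 326 and 323 CPM at the high Aconiti dose, against 480.4, 500.0 and 498 at the low dose (-0.62 ± 0.048). TMEM97 had 168, 166 and 164 CPM, against 247, 251 and 259 at the low dose (-0.60 ± 0.032, adjusted p = 3.20e-19). LSS had 183, 205 and 193 CPM, against 292, 299 and 284 at the low dose (-0.59 ± 0.042). These enzymes and the carrier stood at their lowest in the high dose libraries, with no overlap. TM7SF2 had 58.8, 58.9 and 55.0 CPM at the high dose, against 84.2, 81.7 and 78.5 at the low dose (-0.50 ± 0.060), but its medium dose libraries, at 56.9, 56.3 and 53.5 CPM, were as low as the high dose ones. PDSS2 was 1 of 2 nonsterol members called, with 19.6, 22.6 and 21.9 CPM at the high dose, against 26.7, 25.5 and 24.7 at the low dose (-0.27 ± 0.063, adjusted p = 0.00224), and the other was FNTB (-0.24).

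Against vehicle, the high Aconiti dose had 19 of 21 sterol branch members and 24 of 29 members lower, with 0 higher (background 23.2%, 11.2% higher and 12% lower). SQLE had 264, 254 and 255 CPM at the high dose, against 403, 384 and 395 in vehicle (-0.61 ± 0.037, adjusted p = 4.75e-17). CYP51A1, the lanosterol demethylase, had 219.7, 209 and 202 CPM, against 304, 305 and 304 in vehicle (-0.53 ± 0.036). PDSS2 also lay below vehicle (25.2, 27.2 and 25.9 CPM), at -0.29 ± 0.064 (adjusted p = 0.000622). At the medium dose 15 of 21 sterol branch members were lower (16 of 29 members, 0 higher, median -0.24 for the sterol branch, background 20.9%, 10.6% higher and 10.3% lower). At the low dose 4 members were higher and 2 lower (background 9.9%, 5.51% higher and 4.38% lower). Means fell in order from low to high dose for 19 of the 21 sterol branch members. PMVK lay above vehicle in each library, with 16.2, 14.4 and 16.1 CPM at the high dose, against 13.1, 12.6 and 12.6 in vehicle, and was not called (adjusted p = 0.156).

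Yijung-tang had a smaller median decrease. Between its high and low dose 9 members were lower, all in the sterol branch, and 0 were higher (background 7.29%, 3.98% higher and 3.31% lower), with a sterol branch median of -0.18. HMGCS1 had 359 and 343 CPM at 500 µg/mL, against 490.2 and 479.8 at 20 µg/mL (-0.47 ± 0.058, adjusted p = 9.41e-08). SQLE had 311 and 311 CPM at the high dose, against 376 and 369.9 at the low dose (-0.26 ± 0.045), and TMEM97 had 208 and 209 against 252 and 244 CPM (-0.25 ± 0.039). In each of these genes both high dose libraries lay below both low dose ones. TM7SF2 had 61.8 and 61.9 CPM, against 77.0 and 81.6 at the low dose (-0.36 ± 0.074). MVK had 58.8 and 60.3 CPM, against 71.0 and 76.0 at the low dose (-0.30 ± 0.070, adjusted p = 0.00309), and its call did not hold once the first high dose library or the second low dose library was removed (adjusted p = 0.0626 and 0.103).

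Against vehicle, 11 members were lower at the high Yijung-tang dose, all in the sterol branch, and 0 were higher (background 17.3%, 9.49% higher and 7.84% lower). STARD4 had 82.0 and 79.1 CPM, against 105, 108 and 104 in vehicle (-0.40 ± 0.063), IDI1 had 169.7 and 171 against 212, 213 and 199 CPM (-0.29 ± 0.054), and SC5D, the sterol C5 desaturase, had 118 and 115 against 142, 138 and 137 CPM (-0.26 ± 0.056). The count between the high and the low dose was 4 after removing the first high dose library or the second low dose library, and 16 without the outlying Bupleuri low dose replicate 3, and 17 in a fit of this extract and vehicle alone. At the medium dose 1 member was higher and 2 were lower (background 6.25%, 3.6% higher and 2.65% lower), and at the low dose 0 of 29 passed (background 1.69%, 1.2% higher and 0.486% lower), with 5 at an unadjusted p under 0.05 and 0 by DESeq2.

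With Bupleuri most sterol branch members were higher. Between 280 and 11.2 µg/mL, 14 of 21 sterol branch members were higher and 3 lower, and over all 29 members 16 were higher and 6 lower, with a background of 40.2%, 20.2% higher and 20% lower. Without the outlying low dose replicate 3, 17 sterol branch members were higher and 3 lower (35.1% of genes passed), and in a fit of Bupleuri and vehicle alone the members called were 13. DHCR7, the final reductase, had 326, 322 and 330.1 CPM at the high dose, against 225, 232 and 187 at the low dose (0.60 ± 0.052, adjusted p = 4.53e-13). HMGCS1 had 667, 628 and 657 CPM, against 482, 465 and 433 at the low dose (0.50 ± 0.047, adjusted p = 5.37e-12). Neither gene's high dose libraries overlapped the low dose ones, and without replicate 3 the log2 fold changes were 0.51 and 0.46.

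SC5D had 190.1, 169 and 170.2 CPM at the high Bupleuri dose, against 128, 123 and 127 at the low dose (0.49 ± 0.049). STARD4 had 132, 121 and 121 CPM, against 94.4, 93.9 and 80.3 at the low dose (0.48 ± 0.056), and LSS had 367, 375 and 383 against 289.5, 289 and 262 CPM (0.42 ± 0.042). All 3 high dose libraries of each were above every low dose library. Replicate 3 of the low dose differed from the others in both directions, and was above them for ACAT2, at 272, 274 and 333 CPM, and below them for DHCR7. TM7SF2 (-0.31), LBR (-0.12) and TMEM97 (-0.10) were the 3 sterol branch members called lower between the doses. PMVK (-0.30) and EBP (-0.11) were below 0 too but not called. Without replicate 3, PMVK was at 0.004 and not called, and EBP was called higher, at 0.145.

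The nonsterol members were mixed with Bupleuri. FNTA had 47.5, 43.7 and 45.0 CPM at the high dose, against 35.9, 36.8 and 37.4 at the low dose (0.31 ± 0.050, adjusted p = 2.23e-06), and DHDDS rose by 0.26. FNTB, PDSS1 and COQ2 were lower, and of these PDSS1 and COQ2 were not called without replicate 3 (adjusted p = 0.288 and 0.686).

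Against vehicle, 16 sterol branch members were higher and 2 lower at the high Bupleuri dose (18 and 6 over all members, background 38.9%, 19.9% higher and 19.1% lower). LSS had 367, 375 and 383 CPM, against 245 to 250.5 in vehicle (0.59 ± 0.042, adjusted p = 8.25e-16), and DHCR7 326, 322 and 330.1 against 215, 209.5 and 227 (0.59 ± 0.052). MVD had 248, 264 and 277 CPM, against 181, 177 and 179.6 in vehicle (0.55 ± 0.076), and FDPS, farnesyl diphosphate synthase, 273, 267 and 295 against 205, 212 and 212 (0.41 ± 0.054). No high dose library of these 4 genes reached down to vehicle. PDSS1, of the ubiquinone side chain, had 10.1, 10.0 and 9.86 CPM, against 11.9, 12.7 and 11.6 in vehicle (-0.27 ± 0.088, adjusted p = 0.0117), and lost its call under 4 alternatives: in a fit of this extract and vehicle (adjusted p = 0.0859), with no filter (0.0555), with offsets for GC content and length (0.0851) and without vehicle replicate 2 (0.062).

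The Bupleuri doses were not in order. At 56 µg/mL 7 of 21 sterol branch members were lower than in vehicle and 0 higher (8 and 0 of 29 members, background 10.9%, 5.44% higher and 5.49% lower). For 18 of the 21 the medium dose mean was below both the low and the high dose means, and the high dose mean above vehicle. A medium dose mean below both others was not particular to Bupleuri. Citri had it for 19 of 21, of which 8 had the high dose mean above vehicle. The share of all genes in this order is not given. IDI1 had 212, 213 and 199 CPM in vehicle, 189, 190.2 and 218 at the low, 179.6, 182 and 189 at the medium and 270.4, 258 and 267 at the high dose. At the low dose 7 members were higher and 6 lower (background 22.3%, 11.8% higher and 10.5% lower), which became 3 and 7 without replicate 3 (background 12.3%).

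**Figure D3:**
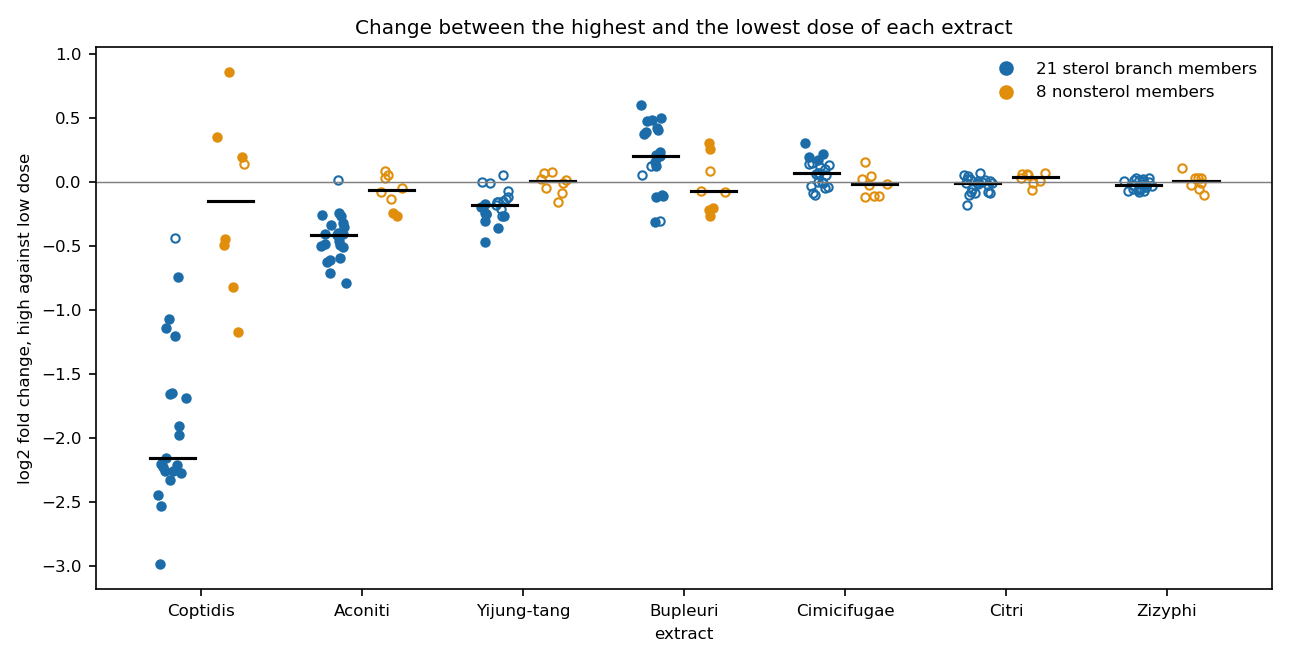
Log2 fold change between the high and the low dose of each replicated extract, with 1 point per member (filled where edgeR's adjusted p is under 0.05) and a black bar at the median of the 21 sterol branch (blue) or 8 nonsterol (orange) members. The sterol branch medians are -2.15 for Coptidis, -0.41 for Aconiti, -0.18 for Yijung-tang and 0.21 for Bupleuri.

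Bupleuri and Aconiti share 1 set and the same 25-fold ratio of high to low dose, so their dose changes were set against each other in 1 contrast, a test added after the data were seen. The difference was called for 24.4% of all tested genes. A gene that was higher with Bupleuri dose and lower with Aconiti dose, each called, was rare over all genes (1.49%), and 14 of the 29 members were of this kind with the difference itself called. All 14 were sterol branch members, from ACAT2 to STARD4. For genes already called in opposite directions in the same fit, a called difference follows almost by itself and is no separate evidence. For HMGCS1 the Bupleuri change was 0.50 ± 0.047 and the Aconiti change -0.71 ± 0.048, a difference of 1.21 ± 0.067 (adjusted p = 1.25e-18). Without Bupleuri low dose replicate 3 the members of this kind were 17, against 2.11% of all genes. The mitochondrial ribosomal share was 2.96 to 3.27% at the high and 2.54 to 2.701% at the low Bupleuri dose, and 3.41 to 3.51% at the high and 2.58 to 2.73% at the low Aconiti dose. Of 6 hepatocyte markers, 4 were lower and 0 higher between the Bupleuri doses (background 20.2% higher and 20% lower). Between the Aconiti doses 1 was lower and 2 were higher (background 6.77% higher and 7.83% lower). The part of neither the ribosomal share nor the markers was tested.

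Cimicifugae, at 500 against 20 µg/mL, had 4 members higher and 0 lower (background 7.14%, 4.41% higher and 2.73% lower). DHCR7 had 282, 275 and 273 CPM at the high dose, against 215, 226 and 228 at the low dose (0.31 ± 0.052, adjusted p = 2.86e-05). FDPS had 272, 249 and 244 CPM, against 214, 220.4 and 221 at the low dose (0.23 ± 0.054), and LSS 328, 314 and 329.5 against 272, 289 and 288 (0.20 ± 0.042). In all 3 genes the high dose libraries lay above the low dose ones. ACAT2 had 331, 297 and 314 CPM, against 284, 273 and 277 at the low dose (0.18 ± 0.054, adjusted p = 0.0354). With the first high dose library removed, FDPS and ACAT2 were not called (adjusted p = 0.0785 and 0.242), leaving 2 members called.

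Against vehicle, 7 members were higher and 5 lower at the high Cimicifugae dose (background 22.2%, 12.1% higher and 10% lower). LSS was 0.38 ± 0.042, DHCR7 0.35 ± 0.052 and FDPS 0.28 ± 0.054 on the log2 scale. MVD had 249, 214 and 217 CPM, against 181, 177 and 179.6 in vehicle (0.34 ± 0.076), and TM7SF2 had 91.1, 83.9 and 83.2 against 67.6, 68.4 and 70.4 (0.32 ± 0.060). With offsets for GC content and length the last 2 were 0.07 each and not called. COQ2 had 13.8, 14.2 and 13.6 CPM, against 16.1, 17.0 and 15.9 in vehicle (-0.24 ± 0.081, adjusted p = 0.0269), and STARD4 90.2, 98.8 and 89.2 against 105, 108 and 104 (-0.19 ± 0.056), and both lost their call with those offsets (adjusted p = 0.0753 and 0.23). Removing the first high dose library brought the count to 6. At the medium dose 3 were higher and 1 lower (background 10.7%, 5.57% higher and 5.12% lower), and at the low dose 1 was higher, LSS (background 6.1%, 2.95% higher and 3.15% lower).

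Citri and Zizyphi showed no member past the test between their high and low doses. For Citri 0 of 29 were called (background 0.78%, 0.252% higher and 0.528% lower), with 2 at an unadjusted p under 0.05 and 1 by DESeq2, and the sterol branch median was -0.01. For Zizyphi 0 of 29 were called by edgeR and by DESeq2 (background 0.006%, 1 gene), with 0 at an unadjusted p under 0.05, and every member lay within -0.10 and 0.11. Against vehicle, the high Citri dose had 7 members lower and 2 higher (background 14.2%, 7.73% higher and 6.51% lower). HMGCS1 had 393, 418 and 408 CPM, against 505, 505 and 484 in vehicle (-0.29 ± 0.047), SQLE 334, 335 and 335 against 403, 384 and 395 (-0.24 ± 0.037) and STARD4 83.7 to 91.0 against 105, 108 and 104 (-0.27 ± 0.056), with no overlap in any. SC5D had 120.2, 122 and 119.6 CPM against 142, 138 and 137 in vehicle (-0.21), and TM7SF2 81.8, 79.2 and 80.1 against 67.6, 68.4 and 70.4 (0.23), and both were called but not with offsets for GC content and length (adjusted p = 0.248 and 0.876). The medium Citri dose had 9 members lower and 0 higher (background 10.5%, 5.54% higher and 4.97% lower) and the low dose 8 lower and 3 higher (background 15.9%, 8.38% higher and 7.56% lower).

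Against vehicle, the high Zizyphi dose had LSS higher, at 295 and 289 CPM against 245 to 250.5 (0.23 ± 0.047), and STARD4 lower, at 90.4 and 89.8 CPM against 105, 108 and 104 (-0.23 ± 0.063), with a background of 3.63%, 2.07% higher and 1.57% lower. Without high dose replicate 2 neither was called (adjusted p = 0.111 and 0.21). The medium dose had 1 member higher and 0 lower (background 1.93%, 1.19% higher and 0.732% lower), and the low dose 1 higher and 2 lower (background 2.79%, 1.73% higher and 1.07% lower).

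Most changes against vehicle went along with the base composition of the transcripts. Over the 29 members, Spearman's correlation of the log2 fold change with transcript GC content was 0.88 for Citri, 0.83 for Zizyphi and 0.72 for Cimicifugae at the high dose. At the high dose it was 0.42 for Yijung-tang, 0.24 for Aconiti, 0.16 for Bupleuri and -0.14 for Coptidis. At the low dose it lay between 0.80 and 0.87 for these extracts other than Coptidis, for which it was 0.57. These are descriptions across genes, the comparisons share their vehicle libraries, and over all genes the correlation for the Citri low dose was 0.53. Between high and low doses the member correlations lay between -0.33 and 0.31. With offsets for GC content and length, the members called fell to 2 for the low Citri dose, against 11 without, and to 4 for the high Citri dose, against 9 without. The counts of Coptidis, Aconiti and Bupleuri at the high dose and between doses stayed within 1.5 times with these offsets.

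**Figure D4:**
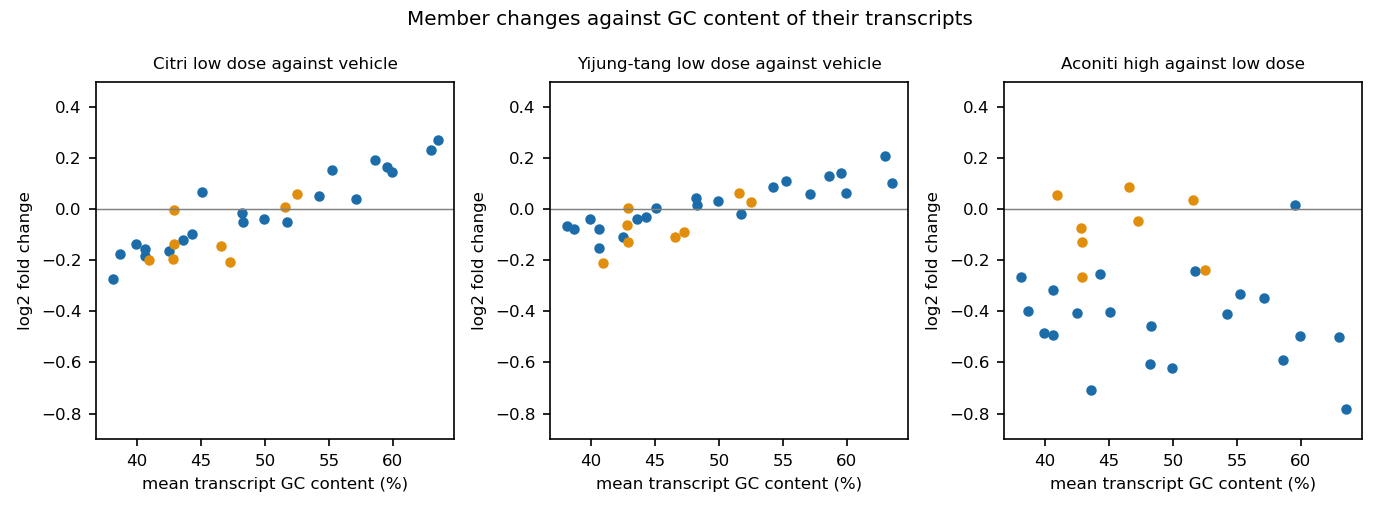
Log2 fold change of each member against the mean GC content of its transcripts (percent), with the 21 sterol branch members in blue and the 8 nonsterol members in orange. The points rise with GC content for the low doses of Citri and Yijung-tang against vehicle, while for Aconiti between the high and the low dose the blue points lie below 0 at both ends of the range, PMVK apart.

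Banhasasim-tang had 1 library per dose, so its values carry no replicate check. At 500 µg/mL 26 of 29 members lay below the vehicle mean, 20 of them in the sterol branch. The sterol branch median log2 ratio was -0.33, against 0.008 over all tested genes, and the lowest member was HMGCS1 at -0.52. Of the 29, 0 were past 1.5-fold, against 8.44% of all genes past it higher and 6.25% lower. At 100 µg/mL the median was -0.04 and 0 members were past the fold (5.16% higher and 5% lower over all genes). The 20 µg/mL library had 5 members past 1.5-fold higher and 13 lower, against 30.3% and 31.3% of all genes. The mitochondrial ribosomal share was 0.485, 8.01 and 11.8% in the low, medium and high dose libraries, against 2.47 to 2.61% in vehicle, and its part in these ratios was not tested.

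Genes that feed or control the pathway were read from lists of 11 regulators of SREBP, 3 genes of acetyl-CoA supply, 7 of sterol efflux and LXR response and 4 of cholesterol traffic. Between the high and the low dose, all 3 genes of acetyl-CoA supply were lower with Coptidis and with Aconiti, 2 were higher with Bupleuri, and 1 was lower with Yijung-tang, where 60.2%, 14.6%, 40.2% and 7.29% of all genes passed. ACSS2, which makes acetyl-CoA from acetate, had 38.2 and 36.7 CPM at the high Coptidis dose, against 124 and 127 at the low dose (-1.74 ± 0.057). It had 75.7, 82.8 and 80.0 CPM at the high Aconiti dose, against 129, 129.9 and 130.4 at the low dose (-0.71 ± 0.043), and 174, 166 and 176 CPM at the high Bupleuri dose, against 125, 119 and 122 at the low dose (0.49 ± 0.043). The groups did not overlap in any of the 3 extracts. ACLY, the citrate lyase that supplies cytosolic acetyl-CoA, changed by -0.81, -0.40 and 0.52 in the same order, each called.

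Of the 11 SREBP regulators, 4 were lower and 4 higher between the Coptidis doses, 2 lower and 1 higher between the Aconiti doses, and 6 higher and 0 lower between the Bupleuri doses. Over all tested genes 60.2% passed between the Coptidis doses, 14.6% between the Aconiti doses and 40.2% between the Bupleuri doses, so nothing is read from these list counts. SREBF2, which encodes SREBP-2, had 110.2 and 114 CPM at the high Coptidis dose, against 209 and 222 at the low dose (-0.94 ± 0.072, adjusted p = 1.30e-15). With Aconiti it had 170.1, 178 and 173 CPM at the high dose, against 209, 212 and 203 at the low dose (-0.26 ± 0.057), and with Bupleuri 249, 263 and 249 against 206, 204 and 164 (0.41 ± 0.057). The 164 CPM is from the outlying Bupleuri low dose replicate 3, and the SREBF2 change without that library was not computed. INSIG2, which holds SREBP in the endoplasmic reticulum, rose by 0.43 with Aconiti and by 0.26 with Coptidis. The INSIG1 row is counted among these but held at most 0.427 CPM in any library, so no fold is given.

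Of the 4 traffic genes, 3 were higher and 0 lower between the Coptidis doses, 2 were higher with Bupleuri and 0 passed with Aconiti, and with the same shares of all genes passing nothing is read from these counts either. NPC1, which moves cholesterol out of lysosomes, had a log2 fold change of 0.51 ± 0.087 with Coptidis and 0.82 ± 0.072 with Bupleuri. It rose with both extracts, while the sterol branch fell with Coptidis and mostly rose with Bupleuri. Of the 7 efflux and LXR genes, of which ABCG1 did not pass the filter, 2 were higher and 2 lower between the Coptidis doses, where 60.2% of all genes passed. NR1H2, a nuclear receptor for oxysterols, was 0.80 ± 0.093 and SOAT1, which esterifies cholesterol for storage, -0.65 ± 0.060.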

How the data were processed

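RNA-seq was made from HepG2 cells as directional libraries read as 100-base pairs, per the labels' protocols. The deposited values are expected counts per Ensembl gene, which RSEM 1.3.3 estimates by dividing reads among genes that share sequence; STAR 2.7.3a, GRCh38, Trim Galore 0.6.5 and FastQC 0.11.9 are named per the submitters' processing notes. For the annotation, no release is named in the sources. Of the 267 columns, 207 belong to no sample analysed here. The labels give the vehicle as 0.1% DMSO in the samples and as 2% in the series text.

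Expected counts (8.75% not whole) were rounded. Genes were filtered with filterByExpr by group, and 57 libraries of 22 groups were fitted together with edgeR 4.0.16 (R 4.3.3, TMM scaling, glmQLFit with robust estimation, glmQLFTest), 1 coefficient per group, with 35 residual degrees of freedom. Benjamini-Hochberg adjustment ran over all 16675 tested genes within each of 31 comparisons, and a call is an adjusted p under 0.05. The standard error was taken as the log2 fold change over the square root of F. Levels are TMM-scaled CPM, apart from those of the cell type markers, which are CPM of the unscaled library total. Banhasasim-tang ratios used a prior count of 2 and no test. GC content and lengths came from GENCODE 29 and symbols from a table that matched 56558 IDs. Alternatives were DESeq2 1.42.0, RLE scaling, no filter, a replicate block, separate fits per extract, each library left out, and, added after seeing the data, offsets for GC content and length. The fit was tested on simulated data.

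The members, lists and tests were chosen with earlier results of these data known. Members given with their values in each library were the called ones of at least 5 CPM with the 5 largest changes per high dose comparison and the largest in each step. Genes withheld from this text are not reported here.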

Additional observations from a re-analysis of the deposited data

Results flagged for a closer look

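For 14 sterol branch members the change between high and low dose was higher with Bupleuri and lower with Aconiti, each called, and the difference between the 2 changes was called as well (edgeR's quasi-likelihood test of the contrast, Benjamini-Hochberg adjusted over all tested genes). Over all tested genes, 1.49% were called in these opposite directions and 24.4% had the difference called. After 2 opposite calls in the same fit, a called difference follows almost by itself and is no separate evidence. The Bupleuri minus Aconiti difference was 1.21 on the log2 scale for HMGCS1, 1.01 for LSS, 0.95 for DHCR7, 0.88 for CYP51A1, 0.86 for FDFT1 and 0.82 for IDI1. It was 0.79 for STARD4, 0.78 for MSMO1, 0.75 for SC5D, 0.70 for SQLE, 0.65 for ACAT2, 0.62 for FDPS, 0.53 for HSD17B7 and 0.40 for NSDHL. For HMGCS1, the adjusted p was 1.25e-18, and all 3 Bupleuri high dose libraries lay above the low dose ones while all 3 Aconiti high dose libraries lay below theirs.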

How the results depend on the processing

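The called members chosen by the rule above for the high dose comparisons changed sign under no alternative run. Of members named without a call, EBP and PMVK did change sign between the Bupleuri doses. Without low dose replicate 3 they were at 0.145 and 0.004. The split of members called for the low Bupleuri dose, 7 higher and 6 lower, was 3 and 7 without its replicate 3. The counts for Coptidis at the high and medium dose and between doses, for Aconiti at the high and medium dose and between doses, and for Bupleuri at the high dose stayed within 1.5 times under every alternative. The cause of the other changes was not tested. In fits of 1 extract with vehicle, members called came to 9, 6 and 5 for the high, medium and low Zizyphi dose (2, 1 and 3 in the shared fit), and 18, 11 and 7 for Yijung-tang (11, 3 and 0), with 17 between its doses (9). They came to 11 and 10 for the medium and low Cimicifugae dose (4 and 1), with 10 between doses (4), and to 14 for the medium Citri dose (9), with 1 between doses (0). They came to 1 and 0 for the medium and low Bupleuri dose (8 and 13), with 13 between doses (22), and to 13 for the low Aconiti dose (6). In a fit of Coptidis and Zizyphi without vehicle, the members called between these extracts at the low dose were 11 (17).

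DESeq2 called 4 and 5 members for the high and low Zizyphi dose, 3 for the low Cimicifugae dose and 1 between the Citri doses. With no filter the counts were 1, 2 and 1 for the high, medium and low Zizyphi dose, 4 and 8 for the medium and low Bupleuri dose, 0 for the medium Yijung-tang dose, 4 for the low Citri dose and 2 for the low Cimicifugae dose. With offsets for GC content and length they were 1 and 0 for the high and low Zizyphi dose, 4, 5 and 2 for the high, medium and low Citri dose with 1 between doses, 7 and 0 for the high and low Cimicifugae dose, 0 for the medium Yijung-tang dose and 4 for the low Bupleuri dose. RLE scaling and a prior count of 5 moved none past 1.5 times. The replicate block gave 2 for the low Cimicifugae dose and moved no other count past 1.5 times. Same-numbered libraries correlated between -0.051 and 0.136 in their deviations from the group means, and in 2 of 16 comparisons with 3 pairs every library correlated best with its own number, so the numbers were not taken to pair the samples.

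Leaving out 1 library at a time, the counts against vehicle ranged from 0 to 7 for the high, 0 to 5 for the medium and 0 to 8 for the low Zizyphi dose, from 6 to 14, 2 to 7 and 1 to 7 for Cimicifugae, and from 4 to 16 for the low Citri dose. They ranged from 0 to 6 for the medium and 0 to 3 for the low Yijung-tang dose, from 3 to 8 for the low Aconiti dose, from 6 to 12 for the medium Bupleuri dose and from 8 to 15 for the high Yijung-tang dose. Between doses they ranged from 2 to 7 for Cimicifugae, 0 to 1 for Citri and 4 to 16 for Yijung-tang. The upper ends against vehicle came without Bupleuri low dose replicate 3. Over the named members and these refits, a call was kept in 423 cases and lost in 20. Counts, and with them the precision, were lowest for PDSS1, PMVK and COQ2.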
